A study of Saccharomyces cerevisiae with 4 samples.

Results

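The shikimate and tryptophan synthesis genes are 10 genes of Saccharomyces cerevisiae, taken by systematic name from the 6690 names in each deposited file. In the order of the pathway they are ARO3 (YDR035W), ARO4 (YBR249C), ARO1 (YDR127W), ARO2 (YGL148W), ARO7 (YPR060C), TRP2 (YER090W), TRP3 (YKL211C), TRP4 (YDR354W), TRP1 (YDR007W) and TRP5 (YGL026C). No measured value was used to choose them, although results of these data were known when they were chosen. RNA was sequenced from a wild-type strain and from a strain that lacks SIR2 and HST1, with 2 libraries per strain that the series describes as technical replicates. Cells grew in the rich glucose medium YPD at 30 °C, from an optical density of 0.3 until it reached 1. The study compared the strains to find genes whose RNA depends on the NAD+-dependent deacetylases Sir2 and Hst1. Every library gave FPKM, a fragment count scaled to gene length and library size, so levels of different genes can be set side by side.

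The strains, of alpha mating type, shared mutant alleles of CAN1, HIS3, LEU2 and URA3 and the allele trp1-1, with LYS2 given as deleted and HMR replaced by ura3. The wild-type labels also give GAL, which the deletion labels do not name. In the deletion strain KanMX stood in place of HST1 and TRP1 in place of SIR2. The 1 member that marks the strain is therefore TRP1, and wild type had only the mutant trp1-1 copy. The labels give 1 strain per genotype, so a further difference between those strains and the missing deacetylases cannot be told apart. Wild-type libraries held SIR2 at 24.3 and 23.8 FPKM and HST1 at 58.2 and 57.8, and the deletion libraries list both genes at 0. Of 4 alpha-specific genes, STE3 had 311 to 367 FPKM and MF(ALPHA)1 and MF(ALPHA)2 had 2109 to 2791 in the 4 libraries. The fourth, SAG1, of alpha-agglutinin, fell from 304 and 335 FPKM to 158 and 171 (1.94-fold lower, limma adjusted p = 0.00359). Of the 4 alpha-specific genes 3 had both deletion libraries below wild type, as did 31.7% of all genes tested. Of 5 a-specific genes 0 were called, but 4 had both deletion libraries above wild type, as did 30.5% of all genes tested. STE2, STE6 and BAR1 had 4.82 to 8.87 FPKM in the 4 libraries. MFA2 had 47.0 and 21.1 FPKM in wild type against 68.1 and 61.0 in the deletion libraries, and MFA1 had 35.3 and a listed 0 against 14.2 and 15.3.

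The shikimate pathway builds chorismate, the common precursor of the aromatic amino acids, from phosphoenolpyruvate and erythrose 4-phosphate. At chorismate the route divides: chorismate mutase leads toward phenylalanine and tyrosine, and anthranilate synthase leads toward tryptophan. In yeast tryptophan is also the starting point of de novo NAD+ synthesis, which supplies the cosubstrate of the sirtuins. Many amino acid synthesis genes are activated by Gcn4, a transcription factor whose own synthesis rises during amino acid starvation.

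The upstream DNA is shown where it holds the letters TGANTCA, the core that Gcn4 binds, because several members share it. The search covered the 400 bases before each start codon in the RefSeq R64 assembly on both strands, where TGANTCA reads alike. It was found before 5 of the 10 members, against 9.23% of 6001 windows of the same length. The matches lay 312 bases before the start codon of ARO4, 223 before ARO1, 162 before TRP2, 123 before TRP3 and 150 before TRP4, counted to the first base of the motif. Each 30-base stretch below is on the strand of its gene, with the motif in capitals. The stretches lie in R64 at chrII:718288-718317 (minus strand) for ARO4, chrIV:704250-704279 (plus) for ARO1, chrV:337776-337805 (plus) for TRP2, chrXI:38258-38287 (minus) for TRP3 and chrIV:1184586-1184615 (plus) for TRP4.
ARO4: ttactgcgaaaTGACTCAacgatgaaatga
ARO1: tgtcatgcataTGACTCAtcccgaacatga
TRP2: cagtgatttgcTGACTCAttacgatttttc
TRP3: caatggctcgtTGACTCAttctaatctata
TRP4: tctctaaaaaaTGATTCAtgaccagacaat
The first 4 sites carry identical motif letters. The shorter form TGACTC, which overlaps TGANTCA at the first 4 of these sites, was found before the same 5 members and in 10.3% of all windows. No match says only that these letters are missing from the window. A match is a description of the sequence and was not tested as a binding site.

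With FPKM as deposited, the deletion strain held the RNA of every member but TRP1 within 0.27 of its wild-type level on the log2 scale. Rescaling each library to the same FPKM sum put ARO2 at -0.34 and TRP3 at -0.30. All 10 members passed the filter on low values, and 1, TRP1, rose and 0 fell (limma fitted to log2(FPKM + 1), two-sided, p adjusted after Benjamini-Hochberg, threshold 0.05). Among the 6370 genes tested 6.75% were called higher and 2.79% lower. TRP4 (higher) and ARO2 and TRP3 (both lower) reached p under 0.05 only without adjustment, a level that 16.1% of all genes tested reached as higher and 14.1% as lower. The share of higher genes among all calls was 70.7%, but it was 44.7% when each library was rescaled to the same FPKM sum and 54.7% after quantile normalization. For the 9 members other than TRP1 the median log2 difference was 0.01, and the values ran from -0.27 to 0.27, against a median of -0.01 over all genes tested. Their 95% intervals ran from -0.41 at the lowest to 0.48 at the highest, which is at most 1.33-fold lower or 1.40-fold higher. These intervals and p-values measure only the spread between technical replicates, not between cultures. In bulk libraries like these, fewer cells making an RNA and less RNA per cell cannot be told apart.

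**Figure D1:**
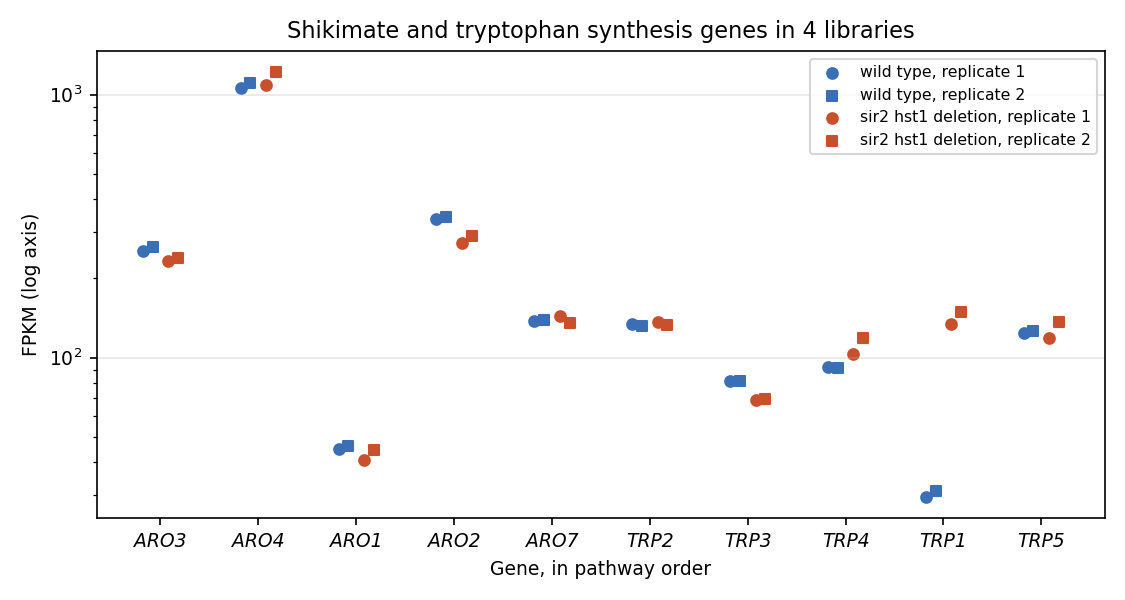
FPKM of the 10 genes on a log axis, in pathway order, with 1 point per library (blue, wild type; orange, deletion; circles, replicate 1; squares, replicate 2). ARO4 is the highest at 1063 to 1220 FPKM, and TRP1 moves from 29.6 and 31.0 to 134 and 149 FPKM.

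The first step is shared by isoenzymes of DAHP synthase, of which Aro3 is inhibited by phenylalanine and Aro4 by tyrosine. ARO4 RNA was the more abundant and the highest of the 10, with 1063 and 1108 FPKM in the wild-type libraries against 1086 and 1220 in the deletion libraries. Its genotypes overlapped, and the difference of 0.08 (log2 scale, SE 0.07) did not pass (limma adjusted p = 0.474). ARO3 gave 253 and 264 FPKM in the wild-type libraries against 233 and 239 in the deletion libraries. Both deletion libraries lay below both wild-type libraries, yet the difference of -0.13 (SE 0.05) did not pass (adjusted p = 0.177). The ratio of ARO4 to ARO3 was 4.20 in both wild-type libraries and 4.66 and 5.11 in the deletion libraries. The ratio is given as a description and was not tested.

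The middle of the pathway is carried by ARO1, whose large product holds 5 enzyme activities, and by ARO2, which encodes chorismate synthase. ARO1 was the lowest member in the deletion strain, at 40.6 and 44.6 FPKM against 45.1 and 46.2 in the wild-type libraries (adjusted p = 0.400). Its deletion libraries were both lower, with a mean of 42.6 ± 2.83 FPKM against 45.6 ± 0.77 (SD, n = 2). ARO2 gave 336 and 343 FPKM in the wild-type libraries against 274 and 291 in the deletion libraries. The groups did not overlap, and the difference of -0.27 (SE 0.05, 95% interval -0.41 to -0.12) missed the threshold (limma adjusted p = 0.0545). ARO2 did pass in 4 of 15 alternative settings, among them the rescaling to the same FPKM sum (adjusted p = 0.0241) and the test of R64 names alone (0.0385), and its adjusted p ran up to 0.287 without wild-type replicate 2. ARO7 encodes chorismate mutase, which directs chorismate away from tryptophan. It gave 138 and 139 FPKM in the wild-type libraries against 144 and 135 in the deletion libraries, so the groups overlapped, and the difference was 0.01 (SE 0.06, 95% interval -0.15 to 0.16, adjusted p = 0.961).

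The tryptophan branch opens with anthranilate synthase, made of the TRP2 and TRP3 products, of which Trp3 also carries the indole-3-glycerol-phosphate synthase activity of a later step. TRP2 gave 134 and 131 FPKM in the wild-type libraries against 137 and 133 in the deletion libraries (difference 0.02, SE 0.05, adjusted p = 0.782). TRP3 gave 81.6 and 81.2 FPKM in the wild-type libraries against 69.2 and 69.6 in the deletion libraries. The replicates of TRP3 lay close together in both genotypes and the groups were separate. Its difference of -0.23 (SE 0.05, 95% interval -0.36 to -0.09) did not pass (limma adjusted p = 0.0653), but passed after rescaling to the same FPKM sum (0.0338) and with R64 names alone (0.0489). The ratio of TRP2 to TRP3 was 1.64 and 1.62 in wild type and 1.98 and 1.92 in the deletion strain, again with no test.

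TRP4 encodes anthranilate phosphoribosyl transferase, the enzyme after anthranilate synthase, and was the member with the largest positive difference after TRP1. It gave 92.3 and 90.9 FPKM in the wild-type libraries against 103 and 118 in the deletion libraries. Both deletion libraries were above wild type, but they also differed from each other, and the difference of 0.27 (SE 0.08, 95% interval 0.06 to 0.48) did not pass (adjusted p = 0.110). The frame YDR354C-A, whose name places it beside TRP4 on the opposite strand and which is known as a dubious frame overlapping TRP4, is not in R64. It gave 229 and 271 FPKM in the wild-type libraries against 176 and 413 in the deletion libraries (adjusted p = 0.879), so it spread widely between the deletion libraries. Reads of TRP4 and of this frame cannot be separated, because the use of strand is not given. TRP5 encodes tryptophan synthase, the last enzyme of the route. It gave 124 and 126 FPKM in the wild-type libraries against 119 and 137 in the deletion libraries, which overlap (difference 0.03, SE 0.08, 95% interval -0.18 to 0.25, adjusted p = 0.831).

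TRP1, which encodes phosphoribosylanthranilate isomerase, gave 29.6 and 31.0 FPKM in the wild-type libraries against 134 and 149 in the deletion libraries. It was the lowest of the 10 in wild type and ranked 4 in the deletion strain, where its range overlapped that of ARO7. It rose 4.68-fold, by 2.19 on the log2 scale (SE 0.08, limma adjusted p = 0.000275). TRP1 is the marker at SIR2, so this rise is no measure of a response to the missing deacetylases. In wild type TRP1 stood at 0.220 and 0.236 of the level of TRP2, and in the deletion strain at 0.980 and 1.12. Its share of the summed FPKM of the 5 TRP genes was 6.41% and 6.74% in wild type and 23.8% and 24.6% in the deletion strain. The files give 1 value for TRP1, so RNA of the trp1-1 copy and RNA of the marker at SIR2 cannot be told apart, and the same holds for an effect of the marker and an effect of the deletions on other members.

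A frame next to TRP1 followed it. YDR008C, known as a dubious frame that overlaps TRP1 on the opposite strand and absent from R64, gave 17.7 and 22.8 FPKM in the wild-type libraries against 71.1 and 81.5 in the deletion libraries. It rose 3.77-fold (log2 difference 1.87, SE 0.14, limma adjusted p = 0.00315). Its ratio to TRP1 was 0.598 and 0.734 in wild type and 0.530 and 0.546 in the deletion strain, a lower ratio where TRP1 was higher. Whether any of it is antisense RNA was not tested, as the sources used here do not say how strand was treated. The annotated neighbours of the native TRP1 locus did not pass: SOK1, a protein kinase gene, gave 24.9 and 23.8 FPKM in the wild-type libraries against 22.2 and 25.9 in the deletion libraries (adjusted p = 0.913). GAL3, of galactose induction, gave 4.85 and 4.39 FPKM in the wild-type libraries against 6.48 and 6.70 in the deletion libraries (adjusted p = 0.0782). PRP11 and NAT1, which flank SIR2 in R64, did not pass either (adjusted p = 0.216 and 0.944).

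**Figure D2:**
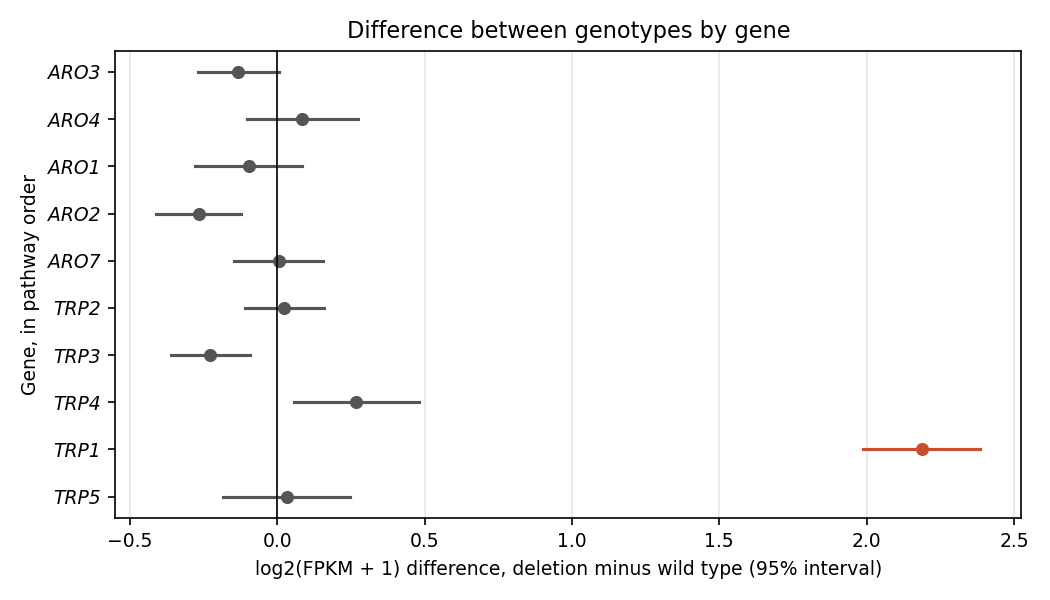
Difference in log2(FPKM + 1), deletion minus wild type, of the 10 genes in pathway order, with 95% intervals from limma (orange, adjusted p under 0.05). TRP1 is at 2.19 and the other 9 points lie between -0.27 and 0.27.

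By length-scaled level the wild-type order was ARO4, ARO2, ARO3, ARO7, TRP2, TRP5, TRP4, TRP3, ARO1 and TRP1. Every neighbour in that order was separated by more than its replicates in wild type, although ARO7, TRP2 and TRP5 all lay within 124 to 139 FPKM. In the deletion strain TRP1, ARO7, TRP2 and TRP5 overlapped, between 119 and 149 FPKM. The summed FPKM of the 9 genes other than TRP1 was 2268 and 2330 in wild type and 2206 and 2388 in the deletion strain, and the groups overlapped. ARO4 alone held between 46.3% and 48.1% of the summed FPKM of all 10. Deletion replicate 2 was above deletion replicate 1 in 8 of the 10 members, against 49.2% of all genes tested. Wild-type replicate 2 was likewise above wild-type replicate 1 in 7 of the 10, against 49.5%. Of the 9 members, 4 (ARO3, ARO1, ARO2 and TRP3) had both deletion libraries below both wild-type libraries, as did 31.7% of all genes tested, and 1 (TRP4) had both above, as did 30.5%.

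The 5 members with TGANTCA (ARO4, ARO1, TRP2, TRP3 and TRP4) had differences of 0.08, -0.10, 0.02, -0.23 and 0.27, and 0 of them passed. Over all windows, 45 of the 554 genes with TGANTCA passed in either direction. ARO3, ARO2, ARO7 and TRP5, without it, had -0.13, -0.27, 0.01 and 0.03, and 0 of them passed by limma. The 2 groups were not tested against each other. GCN4 RNA gave 3095 and 3073 FPKM in the wild-type libraries against 3375 and 3450 in the deletion libraries (difference 0.15, SE 0.04, adjusted p = 0.0879). GCN4 is known to be controlled mainly in translation, which RNA levels do not show.

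Most synthesis genes of other amino acids, known as Gcn4 targets, did not pass. Of 24 tested, 0 rose and 2 fell (limma), against 6.75% and 2.79% of all genes tested. The median log2 difference was -0.07, and 17 of the 24 differences were negative. The largest that did not pass were LYS9 at -0.30 (limma adjusted p = 0.0534), LYS20 at -0.28, and BAT1 and HIS4 at -0.26 each. The highest of the 24 was 0.19. An unadjusted p under 0.05 was reached by 7 lower genes and 0 higher genes, against 14.1% and 16.1% of all genes tested. TGANTCA was found before 18 of these 24 genes. Both genes that fell act in arginine synthesis. ARG3, of ornithine carbamoyltransferase, gave 15.0 and 13.6 FPKM in the wild-type libraries against 8.35 and 7.70 in the deletion libraries, a fall of 1.78-fold (adjusted p = 0.0142). ARG1, of argininosuccinate synthetase, gave 50.9 and 52.0 FPKM in the wild-type libraries against 33.1 and 38.5 in the deletion libraries (1.44-fold lower, adjusted p = 0.0355). The call of ARG3 was lost without deletion replicate 1 or 2 (adjusted p = 0.0638 and 0.0753). That of ARG1 was lost without wild-type replicate 1, wild-type replicate 2 or deletion replicate 1 (log2 difference -0.53, -0.50 and -0.41). The ARG1 call was also lost without the filter on low values (limma adjusted p = 0.0900) and without the mean-variance trend of eBayes (0.0512). HIS7, of histidine synthesis and next to ARO4 on the chromosome, gave 71.9 and 72.4 FPKM in the wild-type libraries against 68.8 and 63.3 in the deletion libraries (adjusted p = 0.258).

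Beyond chorismate, the synthesis steps toward phenylalanine and tyrosine did not pass, but a breakdown gene did. TYR1, of prephenate dehydrogenase, gave 70.4 and 68.2 FPKM in the wild-type libraries against 70.8 and 64.5 in the deletion libraries, and PHA2, of prephenate dehydratase, had 40.8 and 38.0 against 35.5 and 41.8. ARO8, the constitutive aromatic aminotransferase gene, had 301 and 309 against 291 and 306 FPKM. ABZ2, of aminodeoxychorismate lyase, had 57.3 and 50.9 against 51.3 and 49.0 FPKM (limma adjusted p = 0.426). ARO9, the aminotransferase gene induced for aromatic amino acid breakdown, gave 64.1 and 65.3 FPKM in the wild-type libraries against 140 and 150 in the deletion libraries, a rise of 2.24-fold (adjusted p = 0.00102). ABZ1, which sends chorismate to p-aminobenzoate and folate, gave 31.1 and 31.2 FPKM in the wild-type libraries against 24.1 and 25.2 in the deletion libraries (1.26-fold lower, adjusted p = 0.0425). The call of ABZ1 was lost with any 1 of the 4 libraries left out (log2 difference between -0.36 and -0.30). It was also lost without the filter on low values (limma adjusted p = 0.0775) and with a block for replicate number (0.0751). Of the 6 genes in this list 1 rose and 1 fell (limma), against 6.75% and 2.79% of all genes tested. The median log2 difference was -0.03.

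Among 8 genes of tryptophan use and uptake 2 rose and 1 fell, against 6.75% and 2.79% of all genes tested. The median log2 difference was -0.03. BNA2, the first enzyme from tryptophan toward NAD+, gave 5.80 and 5.02 FPKM in the wild-type libraries against 48.9 and 58.8 in the deletion libraries (adjusted p = 0.000382). ARO10, a decarboxylase gene of aromatic breakdown, gave 53.9 and 52.9 FPKM in the wild-type libraries against 125 in both deletion libraries, a rise of 2.34-fold (adjusted p = 0.000488). ARO80, whose product activates ARO9 and ARO10, had 12.5 and 11.9 against 12.4 and 11.1 FPKM (adjusted p = 0.752). GAP1, the general amino acid permease gene, gave 244 and 260 FPKM in the wild-type libraries against 163 and 190 in the deletion libraries (1.43-fold lower, limma adjusted p = 0.0380). The call of GAP1 was lost without wild-type replicate 1, wild-type replicate 2 or deletion replicate 1 (log2 difference -0.56, -0.47 and -0.41). It was also lost without the filter on low values (adjusted p = 0.0921) and without the mean-variance trend of eBayes (0.0576). TAT2, the high-affinity tryptophan permease gene, had 61.3 and 57.2 against 58.6 and 64.4 FPKM (adjusted p = 0.684). TAT1, another amino acid permease gene, had 147 and 144 against 125 and 139 FPKM (limma adjusted p = 0.264). WRS1, of tryptophanyl-tRNA synthetase, had 306 and 314 against 295 and 281 FPKM (adjusted p = 0.258).

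Most genes of precursor supply did not pass. Of 15 genes for erythrose 4-phosphate, phosphoribosyl pyrophosphate, serine and glutamine, 1 rose and 0 fell by limma. Over all genes tested the shares were 6.75% and 2.79%. In this list 1 gene, SER1, was lower with an unadjusted p under 0.05, and the median log2 difference was 0.00. The gene that rose was NQM1, a transaldolase-like gene, from 5.67 and 5.51 FPKM to 13.9 and 12.8 (2.38-fold, adjusted p = 0.00374). TKL1, the main transketolase gene, gave 704 and 717 FPKM in the wild-type libraries against 709 and 764 in the deletion libraries (adjusted p = 0.584). SER1, of serine synthesis, had 198 and 206 against 176 in both deletion libraries (adjusted p = 0.0840). SER2, PRS4 and TKL2 had log2 differences of -0.15, -0.13 and -0.11 and did not pass (limma adjusted p = 0.167, 0.251 and 0.611). Of the 15 differences in this list 7 were negative.

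**Figure D3:**
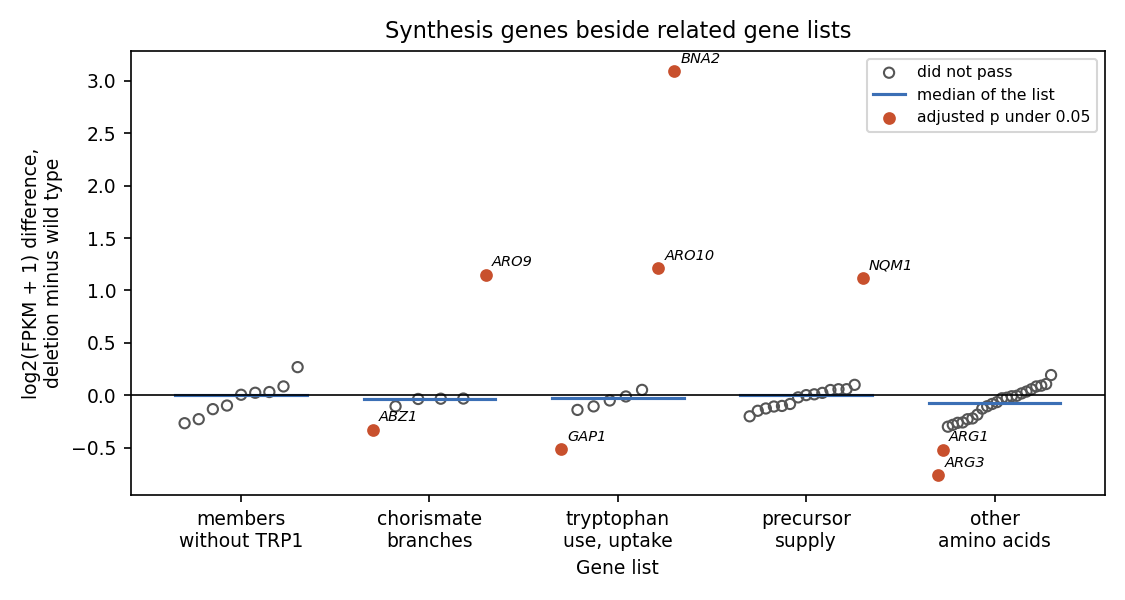
Difference in log2(FPKM + 1), deletion minus wild type, of the members without TRP1 and of 4 related gene lists (1 point per gene, blue line at the list's median; filled orange, adjusted p under 0.05). BNA2 at 3.09, ARO10 at 1.21, ARO9 at 1.15 and NQM1 at 1.12 stand above the rest, while the 9 synthesis genes stay within 0.27 of 0.

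ARO4 lies next to a gene that changed. In R64 the 9 members other than TRP1 have 18 nearest annotated neighbours. Of these 1, SPO23, rose and 0 fell by limma, against 6.75% and 2.79% of all genes tested. At p under 0.05 without adjustment, 4 neighbours were higher and 2 lower, against 16.1% and 14.1% of all genes tested. SPO23 (YBR250W), whose product associates with the meiosis-specific protein Spo1, gave 1.97 and 2.24 FPKM in the wild-type libraries against 12.5 and 12.7 in the deletion libraries. It rose 5.99-fold (log2 difference 2.13, SE 0.11, adjusted p = 0.000899), and passed in all 15 alternative settings. ARO4 and SPO23 are transcribed away from each other, and 1038 bases separate their start codons, so the most abundant member and a gene near 2.10 FPKM in wild type share an upstream region. The interval of the ARO4 difference, -0.10 to 0.27, does not reach the SPO23 interval of 1.85 to 2.42. Other divergent neighbours, PTC2 beside TRP2, UBA1 beside TRP3 and SOK1 beside TRP1, did not pass (adjusted p = 0.623, 0.394 and 0.913).

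The sequence of this shared region is shown at the point that resembles the site of Sum1, the repressor with which Hst1 acts. The letters GNCNCAAA, a short form of the Sum1 site, were searched on both strands of the same 400-base windows. They were found before 1 of the 10 members, TRP3, where the match is on the opposite strand 238 bases before the start codon, against 16.4% of all windows. Before SPO23 they occur on both strands in overlapping positions, 179 and 174 bases before its start codon and 860 and 865 bases from that of ARO4. The TGANTCA of ARO4, counted to its base nearest to ARO4, lies 306 bases from the ARO4 start codon and 733 from that of SPO23. Another TGANTCA, outside the 400-base window of ARO4, lies 550 bases from the ARO4 start codon and 489 from that of SPO23. The stretch at chrII:718848-718877 of R64, on the plus strand, has the match on the SPO23 strand in capitals.
SPO23: tttgtttttgtGTCACAAAataactaatgg
Over all windows, 129 of the 986 genes with GNCNCAAA passed in either direction. TRP3, which has a match, had a difference of -0.23 that did not pass, and SPO23 rose. No binding was measured here, and the match was not tested as a site.

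**Figure D4:**
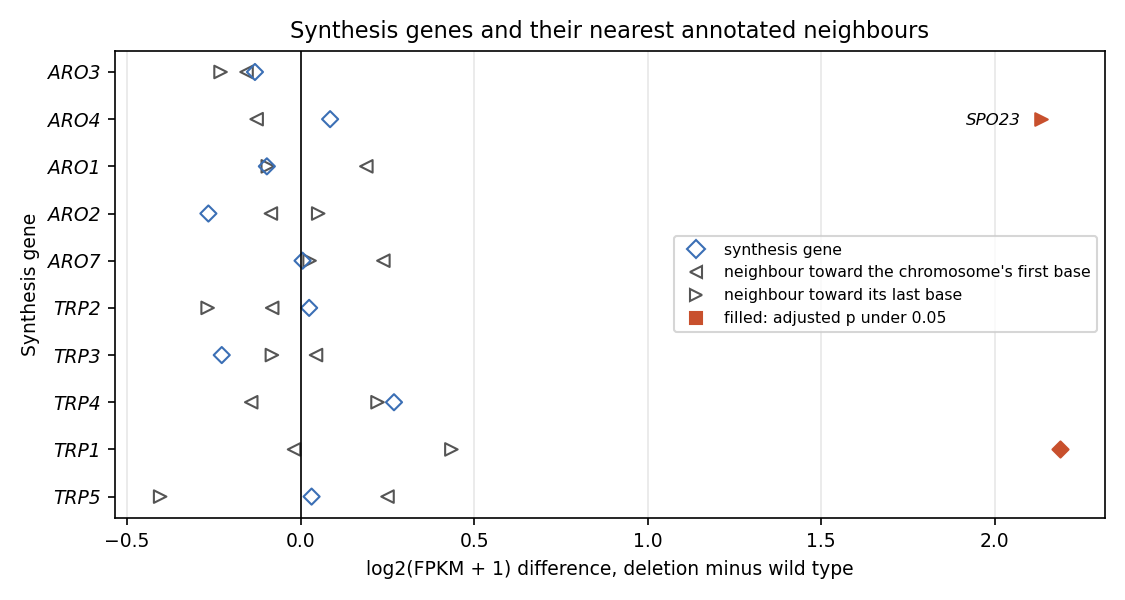
Difference in log2(FPKM + 1), deletion minus wild type, of each synthesis gene (diamond) and of its nearest annotated neighbour on each side in R64 (triangles); filled orange marks an adjusted p under 0.05. SPO23 beside ARO4 is at 2.13 and TRP1 itself at 2.19, and the next farthest point from 0 is GAL3 beside TRP1, at 0.43.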

How the data were processed

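RNA-seq libraries of wild-type and sir2 hst1 deletion yeast were compared, 2 per genotype. The authors deposited 1 file of FPKM values for each library. TopHat2 2.0.10 and Cuffnorm 2.2.1 were used, per the submitters' processing notes. Not given in the sources used here are the genome build, the scaling between libraries, the use of strand and the treatment of multiply mapped reads. FPKM sums ran from 3419038 to 3662426. Read totals cannot be had from FPKM, so the absolute depth is unknown. Steps among values under 1 FPKM (23.6%, 22.5% and 25.5% of 127, 89 and 102 genes within 0.01 log2) put the depths of wild-type replicate 2 and deletion replicates 1 and 2 at 89.6%, 83.3% and 77.6% of that of wild-type replicate 1. Too few values fell on steps for a count test.

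A name was tested where 2 or more libraries reached 1 FPKM, which left 6370 of 6690. Differences came from limma 3.58.1 (R 4.3.3), fitted to log2(FPKM + 1) with genotype alone and eBayes with a mean-variance trend. This scale understates changes of low genes. P-values were adjusted by Benjamini-Hochberg over all genes tested. Folds are ratios of mean FPKM, whereas differences are on the log2 scale. R64 gave symbols for 6007 names and the upstream sequences. The files name no build, so R64 coordinates are given for the printed sequences only. The width of the upstream window and the sequence beside SPO23 were chosen after values were seen. Alternatives changed the pseudocount, filter, scaling or eBayes options, or used a replicate block, R64 names alone and leaving out each library.

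The text names every member, the genes of 4 related lists that passed, neighbours of TRP1 and overlapping frames. It also names up to 4 others per list by size of the log2 difference. UBA1, PTC2, PRP11, NAT1, SPO23, HIS7 and TKL1 fall outside this rule or were added as neighbours. The members and lists were chosen with earlier results of these data known.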

Additional observations from a re-analysis of the deposited data

How the results depend on the processing

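Of 150 values of the 10 members under 15 alternative settings, 137 kept their direction and their side of the threshold, 6 newly passed and 7 changed sign. TRP1 passed in all 15, with a log2 difference between 2.05 and 2.26. The sign changes were all in small differences that did not pass. Rescaling to the same FPKM sum gave -0.0676 for ARO7, -0.0486 for TRP2 and -0.0415 for TRP5. Quantile normalization gave -0.00084 for ARO7. With 1 library left out ARO7 ran from -0.0402 without deletion replicate 1 to 0.0513 without deletion replicate 2, and was at -0.00025 without wild-type replicate 1. TRP5 ran from -0.0680 without deletion replicate 2 to 0.131 without deletion replicate 1. Some differences grew beyond the main fit: ARO2 was at -0.339 and TRP3 at -0.300 with the same FPKM sum. TRP4 was at 0.365 without deletion replicate 1 and at 0.173 without deletion replicate 2.

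The count of members that fell was 0, but 2 (ARO2 and TRP3) with the same FPKM sum or with only R64 names, and 1 (ARO2) after quantile normalization or with robust eBayes. Leaving out 1 library gave 0 in each case. Of the related lists 4 genes rose in every setting with all 4 libraries. With 1 library left out their lowest log2 differences were 2.96 for BNA2, 1.20 for ARO10, 1.10 for ARO9 and 1.06 for NQM1. In the main fit 4 genes of these lists fell, against 10 with the same FPKM sum, 3 with the replicate block, 2 without the trend and 1 without the filter. That count was 5 with a filter of 5 FPKM, quantile normalization, robust eBayes or only R64 names. Leaving out 1 library lowered it. Over all genes tested, 430 were higher, between 184 and 377 with 1 library left out. Those lower were 178, but 489 with the same FPKM sum, 294 after quantile normalization, 297 with only R64 names, 76 without the filter, 111 with the replicate block and between 47 and 83 with 1 library left out. A lone library was assumed to vary like the other genotype. The cause of these shifts was not tested. With R64 names alone 5783 genes were tested, and eBayes was also fitted to those alone.

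The labels link same-numbered libraries only by that number. Deviations of same-numbered libraries correlated at -0.09 across genes, and whether they shared a batch was not tested. With the replicate block 1 member rose, 0 fell, and ABZ1 was lost (adjusted p = 0.0751). Pseudocounts of 0.1 and 5, a filter of 5 FPKM and the same median changed no call of a member. Depth limits the lowest genes, and every member lay above 29 FPKM (lowest 29.6).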
